A study of Rattus norvegicus with 12 samples.

Results

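This set holds 43 rat genes that build, acidify and fill the lysosome: 16 genes of the vacuolar proton pump, 8 cathepsins, 5 glycosidases and 14 further peptidases, lipid-handling proteins, membrane proteins and regulators. The genes were chosen by name. All 43 were found, each on 1 row of a table of 21797 genes, and all 43 were among the 12270 genes tested. RNA was sequenced from rat tissue that the labels describe as subcutaneous tissue and muscle, taken 2 or 4 weeks after a material was implanted. The test rats received MFN+GelMA and the control rats GelMA alone, a hydrogel of gelatin methacryloyl. MFN is not spelled out in the labels. There were 4 groups of 3 libraries, named here in the order MFN+GelMA 4W, GelMA 4W, MFN+GelMA 2W and GelMA 2W. All rats were kept in a specific-pathogen-free room. Strain, sex and age are not stated. It is not stated either whether libraries of a group come from different animals, so p-values measure the spread between these libraries, which may be technical.

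The vacuolar ATPase is a rotary pump. Its cytosolic V1 sector hydrolyses ATP, and the rotation drives protons through the membrane-bound V0 sector into the lysosome. The acid lumen activates cathepsins, which cut proteins, and glycosidases, which trim sugars from glycoproteins and glycolipids. The transcription factors TFEB and TFE3 are known to switch on many of these genes together, and the calcium channel MCOLN1 in the lysosomal membrane acts upstream of TFEB. Macrophages, osteoclasts and the giant cells that form on implanted materials are rich in this machinery.

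Depth was estimated at 11405095 to 14043227 fragments a library, by taking the commonest low value of each count-like column as 1 fragment, although not all values are whole multiples of it. Mitochondrial genes took 17.8% to 32.7% of the summed FPKM (fragments per kilobase of transcript, scaled to the depth of the library). All macrophage and endothelial markers were above 0 in all 12 libraries. Of the fibroblast markers, the collagen gene Col1a1 is listed at 0 in GelMA 4W replicate 1, and Col3a1 there, in GelMA 4W replicate 3 and in GelMA 2W replicate 3. Of the labelled muscle, Acta1 (skeletal muscle actin) reached 275 FPKM in MFN+GelMA 2W replicate 2 and was under 1 FPKM in the other 11. Libraries that stood apart were that one, GelMA 4W replicate 2 (Adipoq, an adipocyte hormone, at 2118 FPKM) and GelMA 2W replicate 3. The last had the lowest endothelial Cdh5 (27.4 FPKM) and the highest macrophage Cd68 (971 FPKM). Values in each group are given below in the order of replicates 1 to 3.

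At 4 weeks most of the lysosomal set was higher in MFN+GelMA. Of the 43 genes 25 rose, 2 fell (Ctsh and Lamp1) and 16 did not pass the test, which was limma on log2(FPKM + 1) with p-values adjusted over all genes and a threshold of 0.05. Over all genes tested 15.3% rose and 9.27% fell. The median log2 fold change was 0.56 over the 43 genes and 0.05 over all genes tested. In 31 genes the 3 MFN+GelMA libraries lay above the 3 GelMA libraries with no overlap, and in 4 they lay below, against 27% and 18.6% of all genes tested. In bulk tissue, a change in the number of cells of a type and a change in RNA per cell cannot be told apart.

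How the values are scaled touched these counts. With FPKM rescaled to an equal sum after mitochondrial genes were left out, the median of all genes at 4 weeks moved by -0.108, and the higher share of all called genes was 46.3%, against 62.3% as deposited. Of the set 21 then rose and 3 fell. Without the 3 libraries that stood apart, 23 rose and 3 fell.

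**Figure D1:**
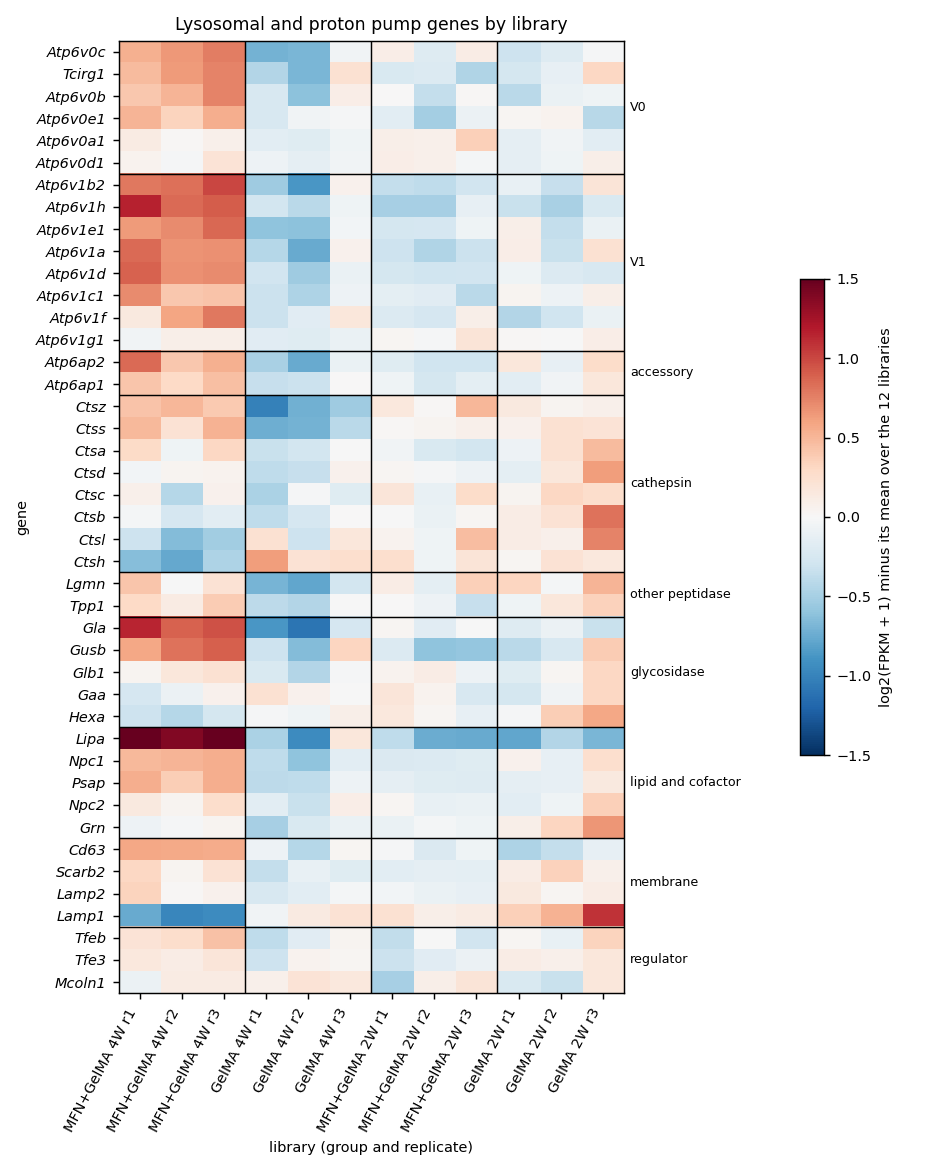
Log2(FPKM + 1) of the 43 genes (rows, grouped by role) in the 12 libraries (columns), each row centred on its mean over the 12 libraries. Most proton pump rows are red in the 3 MFN+GelMA 4W libraries, whereas the Ctsh and Lamp1 rows are blue there.

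In the membrane sector of the pump 4 of 6 genes rose at 4 weeks, against 15.3% of all genes tested. Atp6v0c encodes the proteolipid of the rotating ring that carries protons (ENSRNOG00000006542, chr10:13537032-13542077 in rn6), and it was the most abundant pump transcript. It had 653, 708 and 769 FPKM in MFN+GelMA 4W, against 277, 281 and 434 FPKM in GelMA 4W. At 2 weeks it had 485, 396 and 489 FPKM in MFN+GelMA and 366, 396 and 445 FPKM in GelMA. The MFN+GelMA 4W libraries were the 3 highest of the 12 (4 weeks: log2 fold change 1.13 ± 0.17 SE, adjusted p = 0.000733). Tcirg1, the a subunit isoform known from osteoclasts and macrophages, rose by a log2 fold change of 0.91 (adjusted p = 0.00940), and the second proteolipid gene Atp6v0b rose by a log2 fold change of 0.80 (adjusted p = 0.00754). Atp6v0e1, a small membrane subunit, rose by a log2 fold change of 0.56 (adjusted p = 0.0168). It did not pass without MFN+GelMA 4W replicate 1 or 3 or without GelMA 4W replicate 1, where its adjusted p was highest at 0.0707.

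The 2 V0 genes that did not pass were Atp6v0a1, the a subunit isoform best known from neurons, and Atp6v0d1, which links the ring to V1. Atp6v0a1 had 38.6, 35.8 and 37.5 FPKM in MFN+GelMA 4W and 31.7, 31.2 and 33.7 FPKM in GelMA 4W, a log2 fold change of 0.21 with a 95% interval of -0.01 to 0.42. Atp6v0d1 had 143, 137 and 159.9 FPKM in MFN+GelMA 4W and 132, 126 and 133 FPKM in GelMA 4W (log2 fold change 0.17, interval -0.03 to 0.37). Neither pair of groups overlapped, but the distances were small beside those of the risers. The FPKM ratio of the a subunit isoforms, Tcirg1 over Atp6v0a1, was 3.73, 4.53 and 4.66 in MFN+GelMA 4W and 2.41, 2.06 and 3.61 in GelMA 4W. At 2 weeks it was 2.35, 2.40 and 1.65 in MFN+GelMA and 2.67, 2.77 and 4.07 in GelMA. The ratio was thus higher with MFN+GelMA at 4 weeks and lower with it at 2 weeks, with no overlap either time. At 2 weeks Atp6v0a1 itself had 37.6, 37.4 and 45.8 FPKM in MFN+GelMA and 32.2, 34.2 and 31.6 FPKM in GelMA, without overlap. The 2-week groups of Tcirg1 overlapped. The pair was picked after the values were seen, so no p is given.

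In the ATP-hydrolysing V1 sector 7 of 8 genes rose at 4 weeks, against 15.3% of all genes tested. Atp6v1d, the central rotor shaft (ENSRNOG00000009080, chr6:102032275-102047758), had the smallest adjusted p of the pump. Its level was 229.7, 201 and 203 FPKM in MFN+GelMA 4W, against 101, 85.4 and 115 FPKM in GelMA 4W. Its 2-week levels were 103, 101 and 101 FPKM in MFN+GelMA and 118, 108 and 105 FPKM in GelMA. All 9 other libraries lay below the lowest MFN+GelMA 4W library (4 weeks: log2 fold change 1.07 ± 0.11 SE, adjusted p = 0.000111).

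Atp6v1h, the regulatory H subunit (ENSRNOG00000030862, chr5:14262348-14367898), behaved in the same way. It had 83.2, 67.1 and 69.8 FPKM in MFN+GelMA 4W and 30.3, 27.5 and 35.2 FPKM in GelMA 4W, then 25.8, 25.8 and 33.7 FPKM in MFN+GelMA 2W and 29.1, 26.0 and 31.3 FPKM in GelMA 2W (4 weeks: log2 fold change 1.22 ± 0.14 SE, adjusted p = 0.000172). Atp6v1e1, of the outer stalk (ENSRNOG00000011905, chr4:153351420-153373649), had 139.5, 146 and 162 FPKM in MFN+GelMA 4W and 58.2, 57.7 and 86.9 FPKM in GelMA 4W, then 74.4, 75.0 and 85.6 FPKM in MFN+GelMA 2W and 95.3, 69.8 and 83.1 FPKM in GelMA 2W (4 weeks: log2 fold change 1.16 ± 0.16 SE, adjusted p = 0.000515). For both genes the 3 MFN+GelMA 4W libraries were the highest of the 12. Atp6v1c1, the C subunit that joins the sectors (ENSRNOG00000004846, chr7:77678967-77716408), had 123, 99.6 and 101 FPKM in MFN+GelMA 4W and 60.0, 54.1 and 70.8 FPKM in GelMA 4W, then 67.5, 66.3 and 56.3 FPKM in MFN+GelMA 2W and 77.5, 71.2 and 79.6 FPKM in GelMA 2W (4 weeks: log2 fold change 0.80 ± 0.12 SE, adjusted p = 0.000912).

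The head of V1, where ATP is split, is built of A and B subunits. The gene of the catalytic A subunit, Atp6v1a, rose by a log2 fold change of 1.11 (adjusted p = 0.00167), and that of the B subunit, Atp6v1b2, rose by a log2 fold change of 1.32 (adjusted p = 0.000863), the largest change in the pump. Atp6v1f, of the rotor and the 1 pump gene whose groups overlapped at 4 weeks, rose by a log2 fold change of 0.61 (adjusted p = 0.0289). That call was lost without MFN+GelMA 4W replicate 2 or 3 or GelMA 4W replicate 1 or 2 (highest adjusted p 0.114, without GelMA 4W replicate 1). It was also lost under the scaling without mitochondrial genes (0.0613), in a fit of the 4-week libraries alone (0.0638) and without the 3 libraries that stood apart (0.0729). Atp6v1g1, of the outer stalk, did not pass, with 246, 272 and 272 FPKM in MFN+GelMA 4W and 227, 225 and 237 FPKM in GelMA 4W (log2 fold change 0.20, interval 0.00 to 0.39). Both accessory genes rose: Atp6ap2, also known as the prorenin receptor, by a log2 fold change of 1.04 (adjusted p = 0.00118) and Atp6ap1 by 0.60 (adjusted p = 0.00384).

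**Figure D2:**
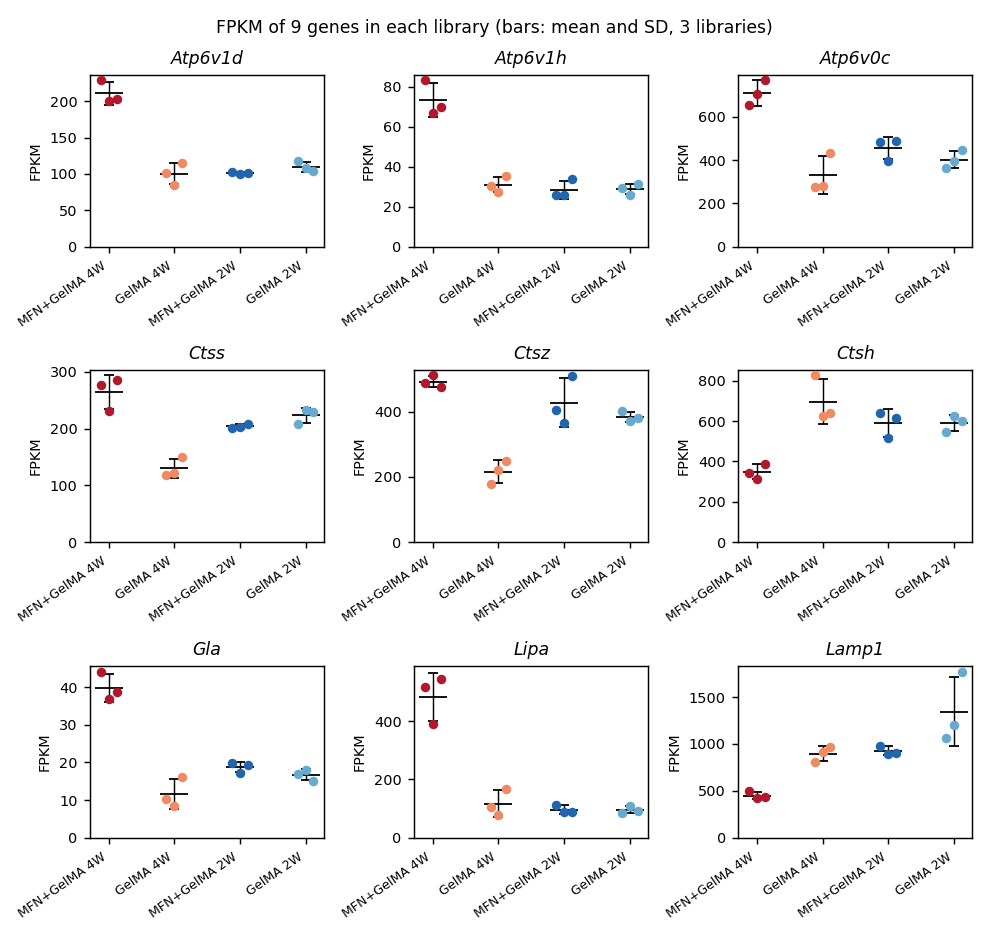
FPKM (y axes, from 0) of 9 genes in each library of the 4 groups, with the mean and SD of 3 libraries. Atp6v1d, Atp6v1h, Atp6v0c, Gla and Lipa are highest in all 3 MFN+GelMA 4W libraries, Ctss and Ctsz are lowest in GelMA 4W, and Ctsh and Lamp1 are lowest in MFN+GelMA 4W.

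Of the 8 cathepsins 2 rose at 4 weeks, 1 fell and 5 did not pass. Of all genes tested 15.3% rose and 9.27% fell, so these counts of few genes are near those shares. Ctsb, a cysteine protease and the most abundant transcript of the set (ENSRNOG00000010331, chr15:46316740-46337612), had 3708, 3178 and 3384 FPKM in MFN+GelMA 4W and 2897, 3171 and 3811 FPKM in GelMA 4W, which overlapped (log2 fold change 0.06 ± 0.18 SE, adjusted p = 0.839). The 2-week libraries had 3770.3, 3544 and 3878 FPKM in MFN+GelMA and 4103, 4399 and 6642 FPKM in GelMA, of which GelMA 2W replicate 3 was the highest of the 12.

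Ctss, the protease that trims the invariant chain during antigen presentation (ENSRNOG00000021157, chr2:197655785-197679458), had 278, 231 and 285 FPKM in MFN+GelMA 4W and 119, 121 and 150.0 FPKM in GelMA 4W, with no overlap (log2 fold change 1.02 ± 0.11 SE, adjusted p = 0.000155). Levels at 2 weeks were 200.4, 204 and 209 FPKM in MFN+GelMA and 209, 233 and 229.6 FPKM in GelMA, which lay between the 2 groups of 4 weeks apart from 1 GelMA library above the lowest MFN+GelMA 4W library. Ctsz, a carboxypeptidase (ENSRNOG00000050697, chr3:172527106-172537877), had 487, 511 and 477 FPKM in MFN+GelMA 4W and 179, 219.8 and 249 FPKM in GelMA 4W (log2 fold change 1.20 ± 0.14 SE, adjusted p = 0.000190). In the 2-week groups it had 406, 367 and 511 FPKM in MFN+GelMA and 402, 372 and 381 FPKM in GelMA, all above the GelMA 4W libraries. In both genes GelMA 4W was the low group.

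Ctsh, an aminopeptidase (ENSRNOG00000014064, chr8:97439160-97458287), went the other way. It had 345, 314 and 389 FPKM in MFN+GelMA 4W, against 827, 624 and 639 FPKM in GelMA 4W (log2 fold change -0.99 ± 0.14 SE, adjusted p = 0.000475). At 2 weeks it had 642, 515 and 615 FPKM in MFN+GelMA and 548, 624 and 601 FPKM in GelMA. All 3 MFN+GelMA 4W libraries lay below the other 9. The FPKM ratio of Ctss to Ctsh, picked in the same way, was 0.805, 0.734 and 0.733 in MFN+GelMA 4W and 0.144, 0.194 and 0.235 in GelMA 4W.

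Of the 5 cathepsins that did not pass, log2 fold changes at 4 weeks were 0.38 for Ctsa, a carboxypeptidase that also protects other hydrolases, 0.13 for Ctsc, 0.24 for the aspartic protease Ctsd and -0.53 for Ctsl. Ctsl had 773, 608 and 666 FPKM in MFN+GelMA 4W and 1127, 775 and 1076 FPKM in GelMA 4W, the lowest GelMA library just above the highest MFN+GelMA library. Its adjusted p of 0.0942 became 0.00957 without the 3 libraries that stood apart. Ctsa shared its locus with 2 other rows of the table, so the division of its reads was uncertain.

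Of the 5 glycosidases 2 rose at 4 weeks and 3 did not pass, where 15.3% of all genes tested rose. Gla, alpha-galactosidase A, the enzyme lacking in Fabry disease (ENSRNOG00000011513, chrX:105406791-105417323), had 43.9, 36.8 and 38.6 FPKM in MFN+GelMA 4W and 10.1, 8.52 and 16.2 FPKM in GelMA 4W. Its 2-week levels were 19.7, 17.1 and 19.2 FPKM in MFN+GelMA and 16.9, 18.1 and 15.2 FPKM in GelMA. The MFN+GelMA 4W libraries were the 3 highest by a wide margin (log2 fold change 1.74 ± 0.18 SE, adjusted p = 0.000122). Gusb, beta-glucuronidase (ENSRNOG00000000913, chr12:30198821-30268990), had 162, 191 and 202 FPKM in MFN+GelMA 4W and 86.9, 68.2 and 135 FPKM in GelMA 4W, then 93.8, 70.6 and 71.7 FPKM in MFN+GelMA 2W and 81.0, 91.6 and 141 FPKM in GelMA 2W.

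At 4 weeks Gusb rose (log2 fold change 0.98 ± 0.25 SE, adjusted p = 0.0151). It did not pass without MFN+GelMA 4W replicate 3, GelMA 4W replicate 1 or GelMA 4W replicate 2 (highest adjusted p 0.0551, without GelMA 4W replicate 1), and its locus held 1 other row. Hexa, the alpha chain of beta-hexosaminidase and the most abundant glycosidase (ENSRNOG00000010252, chr8:64325434-64350773), had 186, 171 and 192 FPKM in MFN+GelMA 4W and 228, 219.7 and 245 FPKM in GelMA 4W. The 2-week libraries had 257, 236 and 212 FPKM in MFN+GelMA and 228, 299 and 344 FPKM in GelMA. All 3 MFN+GelMA 4W libraries lay below the other 9, yet the fold change at 4 weeks did not pass (log2 fold change -0.33 ± 0.14 SE, adjusted p = 0.105). With the scaling that left out mitochondrial genes it did pass (log2 fold change -0.46, adjusted p = 0.0411), as it did in a fit of the 4-week libraries alone (adjusted p = 0.0433). The other glycosidases were Glb1, beta-galactosidase (log2 fold change 0.38, adjusted p = 0.0643), and Gaa, acid alpha-glucosidase (log2 fold change -0.19, adjusted p = 0.415).

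Set side by side, 13 of 16 pump genes rose at 4 weeks and 0 fell. Of the 8 cathepsins 2 rose and 1 fell, and of the 5 glycosidases 2 rose and 0 fell. Among all genes tested 15.3% rose and 9.27% fell, with a median log2 fold change of 0.05. The counts of cathepsins and glycosidases are of few genes. Median log2 fold changes were 0.86 for the pump, with every gene above 0 (0.17 to 1.32), 0.19 for the cathepsins (-0.99 to 1.20) and 0.38 for the glycosidases (-0.33 to 1.74). The summed FPKM of the 16 pump genes was 3008.9 to 3266 in MFN+GelMA 4W and 1542.5 to 2109 in GelMA 4W, with no overlap. The summed FPKM of the 8 cathepsins was 6399 to 7296 in MFN+GelMA 4W and 6222 to 7538 in GelMA 4W, ranges that overlapped almost fully. Ctsb alone made up a large part of these sums, with means of 3423 FPKM in MFN+GelMA 4W and 3293 FPKM in GelMA 4W. The 5 glycosidases together had 515 to 577 FPKM in MFN+GelMA 4W and 402 to 522 FPKM in GelMA 4W. With the scaling without mitochondrial genes the medians were 0.73 for the pump, 0.06 for the cathepsins and 0.26 for the glycosidases, in the same order. The classes hold unlike numbers of genes that share libraries, so no test was run between them.

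Of all genes tested, 15.3% rose and 9.27% fell at 4 weeks. Markers of macrophages moved with the pump at 4 weeks: 10 of 17 tested rose and 0 fell. Their summed FPKM was 19031 to 19762 in MFN+GelMA 4W, 6647 to 11464 in GelMA 4W, 11845 to 13129 in MFN+GelMA 2W and 10366 to 12415 in GelMA 2W, and none was at 0 in any library. Osteoclast and giant cell markers, of which 9 of 12 tested rose and 0 fell, summed to 1752.5 to 2354 FPKM in MFN+GelMA 4W and 333 to 845 FPKM in GelMA 4W. They summed to 394 to 553 FPKM in MFN+GelMA 2W and 323 to 377 FPKM in GelMA 2W. This list includes the lysosomal genes Ctsk, Acp5 and Atp6v0d2, so its counts and sums are not separate from those of lysosomal genes. Ctsk alone, given below, made up a large part of the sums. Dcstamp, needed for the fusion of osteoclasts and giant cells, is listed at 0 in 8 libraries and was too low to be tested. It was above 0 but under 1 FPKM in all MFN+GelMA 4W libraries and in GelMA 4W replicate 2. Of 10 endothelial markers 0 rose and 4 fell, with sums of 138 to 175 FPKM in MFN+GelMA 4W and 262 to 407 FPKM in GelMA 4W. The part of these cell types in the changes of the lysosomal genes was not tested. In GelMA 2W replicate 3 the mean log2(FPKM + 1) of the macrophage markers (8.24) lay within the range of MFN+GelMA 4W (8.20 to 8.39), but their summed FPKM (12415) lay below it. The osteoclast and giant cell sum there was 368 FPKM, also below MFN+GelMA 4W. In that library the pump mean was 6.80, below the 7.27 to 7.39 of MFN+GelMA 4W, and the cathepsin mean of 9.58 was the highest of the 12 libraries. It is only 1 library, and 1 of those that stood apart, and the cause of its levels was not tested.

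**Figure D3:**
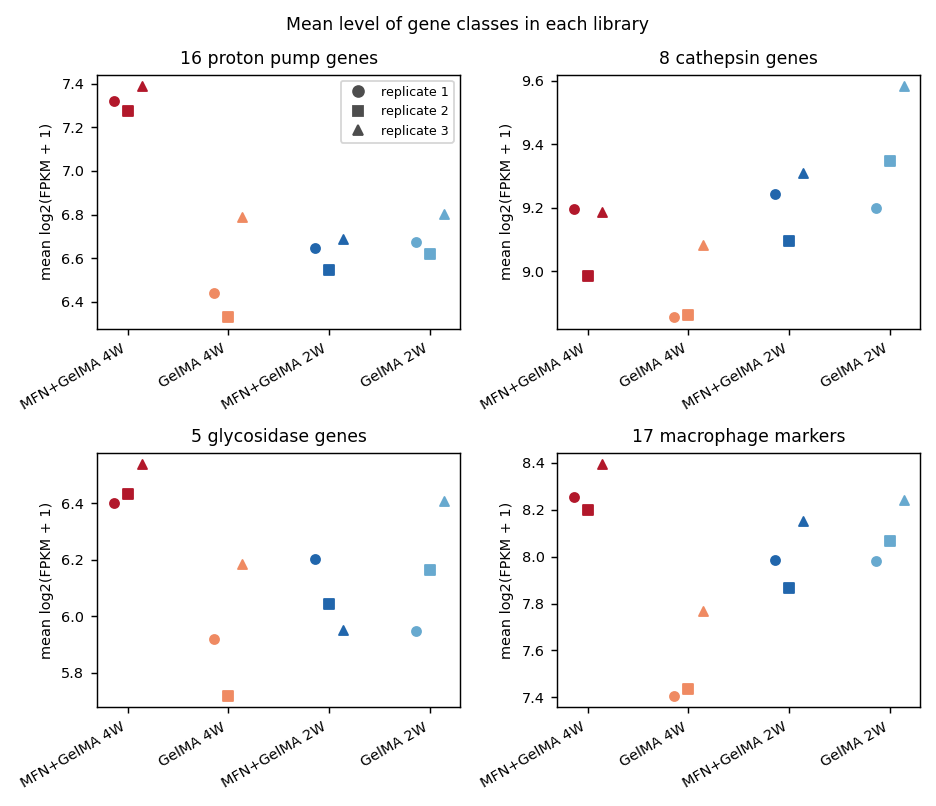
Mean log2(FPKM + 1) of 16 proton pump genes, 8 cathepsins, 5 glycosidases and 17 macrophage markers (y axes, not from 0) in each library of the 4 groups; marker shapes give the replicate number. Pump means of MFN+GelMA 4W (7.27 to 7.39) lie above all other libraries, while cathepsin means are highest in GelMA 2W replicate 3 (9.58).

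Both further peptidases rose at 4 weeks, where 15.3% of all genes tested rose. Lgmn, legumain, which cuts after asparagine and matures several cathepsins (ENSRNOG00000007089, chr6:126282232-126320726), had 1027, 766 and 895 FPKM in MFN+GelMA 4W and 474, 451 and 638 FPKM in GelMA 4W (log2 fold change 0.79 ± 0.19 SE, adjusted p = 0.0107). Levels at 2 weeks were 837, 700.2 and 987 FPKM in MFN+GelMA and 967, 759 and 1104 FPKM in GelMA, all above the GelMA 4W libraries. Tpp1, tripeptidyl peptidase, rose by a log2 fold change of 0.55 (adjusted p = 0.0206). It was not called without MFN+GelMA 4W replicate 1 or 3 or GelMA 4W replicate 1 or 2 (highest 0.0789, without GelMA 4W replicate 1), nor with median ratio scaling (0.0528), the scaling without mitochondrial genes (0.0738) or without the 3 libraries that stood apart (0.0632).

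Lipid handling held the largest change of the set. Lipa, the acid lipase that frees cholesterol and fatty acids from engulfed lipid (ENSRNOG00000019077, chr1:252816526-252849904), had 519, 390.2 and 543 FPKM in MFN+GelMA 4W and 107, 76.8 and 168 FPKM in GelMA 4W. In the 2-week groups it had 114, 88.1 and 87.6 FPKM in MFN+GelMA and 86.1, 109.8 and 92.1 FPKM in GelMA. The lowest MFN+GelMA 4W library was above the highest of all others (log2 fold change 2.10 ± 0.24 SE, adjusted p = 0.000181). Npc1, which moves the freed cholesterol out through the membrane (ENSRNOG00000012016, chr18:3597239-3662683, with 1 other row at its locus), had 38.4, 38.9 and 40.0 FPKM in MFN+GelMA 4W and 20.7, 17.6 and 24.3 FPKM in GelMA 4W, then 23.1, 23.4 and 23.8 FPKM in MFN+GelMA 2W and 28.5, 24.9 and 32.5 FPKM in GelMA 2W. It too was highest in the 3 MFN+GelMA 4W libraries (log2 fold change 0.89 ± 0.12 SE, adjusted p = 0.000507). Its soluble partner Npc2 did not pass (log2 fold change 0.28, interval -0.04 to 0.61).

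Psap, the precursor of the saposins that help enzymes reach glycolipids (ENSRNOG00000000571, chr20:29831313-29856875), was the second most abundant transcript. It had 1656, 1464 and 1662 FPKM in MFN+GelMA 4W and 869, 874 and 1082 FPKM in GelMA 4W, then 1039, 1003 and 996 FPKM in MFN+GelMA 2W and 1038, 1046 and 1264 FPKM in GelMA 2W. The MFN+GelMA 4W libraries were again the 3 highest (log2 fold change 0.76 ± 0.12 SE, adjusted p = 0.00109). Grn, progranulin, a secreted and lysosomal protein cut into granulins (ENSRNOG00000021031, chr10:90376932-90383205), had 488, 507 and 529 FPKM in MFN+GelMA 4W and 363, 436 and 477 FPKM in GelMA 4W (log2 fold change 0.26 ± 0.14 SE, adjusted p = 0.205), which did not pass. At 2 weeks it had 477, 501 and 492 FPKM in MFN+GelMA and 545, 642 and 811 FPKM in GelMA, its highest group.

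Of the 4 membrane proteins 2 rose, 1 fell and 1 did not pass at 4 weeks, where 15.3% of all genes tested rose and 9.27% fell. Lamp1, the abundant glycoprotein of the lysosomal surface (ENSRNOG00000019629, chr16:81689334-81714419), had 492, 422 and 434 FPKM in MFN+GelMA 4W, against 805, 914 and 967 FPKM in GelMA 4W. Its 2-week levels were 979, 889.7 and 907 FPKM in MFN+GelMA and 1067, 1201 and 1767 FPKM in GelMA. The 3 MFN+GelMA 4W libraries were the lowest of the 12, without overlap (log2 fold change -0.99 ± 0.17 SE, adjusted p = 0.00141). Its relative Lamp2 had 265, 214 and 220.3 FPKM in MFN+GelMA 4W and 179, 189 and 207 FPKM in GelMA 4W (log2 fold change 0.28, interval 0.06 to 0.50, not passed). The tetraspanin Cd63 rose by a log2 fold change of 0.73 (adjusted p = 0.00234). Scarb2, which carries glucocerebrosidase to the lysosome, rose by a log2 fold change of 0.40 (adjusted p = 0.0168). It was not called without MFN+GelMA 4W replicate 1 or 3 or GelMA 4W replicate 1 (highest 0.0758, without GelMA 4W replicate 1), nor under the scaling without mitochondrial genes (0.0620).

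The regulators were the 3 least abundant transcripts of the set. Tfeb (ENSRNOG00000014666, chr9:15207821-15214596) had 23.7, 24.7 and 28.1 FPKM in MFN+GelMA 4W and 15.4, 18.1 and 21.1 FPKM in GelMA 4W, then 15.5, 20.4 and 16.6 FPKM in MFN+GelMA 2W and 20.8, 18.8 and 25.9 FPKM in GelMA 2W. It passed narrowly at 4 weeks (log2 fold change 0.47 ± 0.15 SE, adjusted p = 0.0446) and in 5 of 12 fits that each left out 1 library. Those that lost it were without any 1 of the 3 MFN+GelMA 4W libraries, GelMA 4W replicate 1 (highest adjusted p 0.167) or 2, MFN+GelMA 2W replicate 3 or GelMA 2W replicate 1. It also missed the threshold with no filter on low values (0.0558), no intensity trend (0.0541), median ratio scaling (0.0808) and the scaling without mitochondrial genes (0.126). Tfe3 (ENSRNOG00000009605, chrX:15575933-15587419) had 16.9, 16.3 and 17.1 FPKM in MFN+GelMA 4W and 11.9, 15.6 and 15.3 FPKM in GelMA 4W, then 11.8, 13.2 and 14.1 FPKM in MFN+GelMA 2W and 16.2, 15.9 and 17.0 FPKM in GelMA 2W. Its change at 4 weeks did not pass (log2 fold change 0.23 ± 0.12 SE, adjusted p = 0.181). Mcoln1 (ENSRNOG00000000975, chr12:2054679-2068682) had 15.1, 17.7 and 17.7 FPKM in MFN+GelMA 4W and 17.1, 18.7 and 18.2 FPKM in GelMA 4W, then 11.2, 17.3 and 18.6 FPKM in MFN+GelMA 2W and 13.6, 12.6 and 18.3 FPKM in GelMA 2W. Its groups overlapped at both times (log2 fold change -0.10 ± 0.18 SE, adjusted p = 0.741).

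Because TFEB and TFE3 are known to bind DNA through the letters TCACGTG, the promoters of the set were searched for it, and for TCATGTG, a motif known from their relative MITF. The motifs were chosen after the expression values were seen. The windows, from RefSeq on GRCr8, run from 250 bases before to 50 after the gene start, and 37 of the 43 genes matched. Both strands were read: CACGTGA and CACATGA are the same motifs on the other strand, and TCACGTGA holds TCACGTG on both strands. The 8 windows below are those of Lamp1, the gene with most matches, of the regulator Mcoln1, of the 4 pump genes with either motif, of Ctss, the cathepsin gene with TCATGTG, and of Tpp1, which holds TCATGTG in 2 runs. Capitals mark the matches, and 12 bases flank them.
Lamp1: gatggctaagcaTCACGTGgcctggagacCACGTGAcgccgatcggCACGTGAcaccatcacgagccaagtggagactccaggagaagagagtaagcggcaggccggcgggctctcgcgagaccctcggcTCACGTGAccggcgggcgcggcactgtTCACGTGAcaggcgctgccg
Mcoln1: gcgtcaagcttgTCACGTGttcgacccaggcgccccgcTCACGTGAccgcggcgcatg
Atp6v0d1: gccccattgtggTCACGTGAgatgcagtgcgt
Atp6v0e1: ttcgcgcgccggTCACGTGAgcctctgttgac
Atp6v0c: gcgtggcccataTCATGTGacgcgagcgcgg
Atp6v1a: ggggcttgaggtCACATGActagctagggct
Ctss: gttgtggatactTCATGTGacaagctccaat
Tpp1: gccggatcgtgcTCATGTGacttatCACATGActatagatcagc
On GRCr8 these lie at chr16:83075083-83075259, minus strand for Lamp1, chr12:6358223-6358280, plus strand for Mcoln1, chr19:50357282-50357313, minus strand for Atp6v0d1 and chr10:17007114-17007145, minus strand for Atp6v0e1. The others lie at chr10:13705821-13705851, minus strand for Atp6v0c, chr11:70067468-70067498, plus strand for Atp6v1a, chr2:185775387-185775417, plus strand for Ctss and chr1:169515947-169515990, minus strand for Tpp1.

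TCACGTG was found in 7 of the 37 promoters (18.9%), against 5.61% of the 9102 promoters of tested genes and 3.2% of all 33469. The 7 genes were Atp6v0d1, Atp6v0e1, Ctsd, Gaa, Glb1, Lamp1 and Mcoln1. Lamp1 had 5 separate runs, whose first bases lie from position -184 to -39 relative to the start. Of the 7 genes 1 rose at 4 weeks (Atp6v0e1), 1 fell (Lamp1) and 5 did not pass. TCATGTG was found in 7 others (18.9%, against 2.21% of tested genes' promoters and 3.56% of all): Atp6v0c, Atp6v1a, Cd63, Ctss, Grn, Scarb2 and Tpp1. Of these 6 rose and 1, Grn, did not pass.

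With neither TCACGTG nor TCATGTG were 23 genes, of which 14 rose and 1 fell. Over all tested genes, 13.7% of those with TCACGTG, 22.4% of those with TCATGTG and 15.8% of those with neither rose at 4 weeks. Among 72 further lysosomal genes with a promoter, 4 of 12 with TCACGTG, 5 of 8 with TCATGTG and 23 of 55 with neither rose (3 held both and count under each). A match describes letters in this window and is not evidence of binding.

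At 2 weeks 0 of the 43 genes passed the limma test in either direction, against 0.171% of all genes tested that rose and 0.326% that fell. At an unadjusted p under 0.05 there were 6 of the 43, against 1742 of all 12270 genes tested. The median log2 fold change was -0.14 over the set, -0.09 over the pump, -0.14 over the cathepsins and -0.02 over the glycosidases, against 0.01 over all genes tested. Leaving out 1 library moved these medians to between -0.18 and -0.06 for the set, -0.14 and -0.02 for the pump, -0.22 and -0.05 for the cathepsins, and -0.14 and 0.09 for the glycosidases. The glycosidase median turned positive when replicate 3 of either 2-week group was left out. Without the 3 libraries that stood apart they were -0.03, -0.01, 0.01 and 0.06 in the same order. MFN+GelMA lay below GelMA without overlap in 10 genes and above in 1, against 8.48% and 9.7% of all genes. The 1 gene above was Atp6v0a1 (log2 fold change 0.29, 95% interval 0.08 to 0.50). Of the 16 pump genes 10 had a log2 fold change below 0 and 6 above. The pump genes Atp6v1d, Atp6v1a and Atp6v1c1 had log2 fold changes of -0.11, -0.36 and -0.26 at 2 weeks. Their 95% intervals (-0.35 to 0.13, -0.78 to 0.07 and -0.54 to 0.01) lay below those of 4 weeks.

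The change of the material effect between weeks was tested directly as 4 weeks minus 2 weeks. It was positive and past the threshold for 25 genes and negative for 1, Ctsh, against 9.1% and 4.98% of all genes tested. By class these were 11 of 16 pump genes, 3 of 8 cathepsins with 1 negative, and 2 of 5 glycosidases. For Lipa the effects differed most (log2 difference 2.09 ± 0.34 SE, adjusted p = 0.00540). The difference was log2 difference 1.18 ± 0.16 SE, adjusted p = 0.00309 for Atp6v1d, log2 difference 1.15 ± 0.16 SE, adjusted p = 0.00337 for Ctss and log2 difference -0.98 ± 0.19 SE, adjusted p = 0.00940 for Ctsh. For Lamp1, which fell at 4 weeks, the difference between weeks did not pass (log2 difference -0.49 ± 0.24 SE, adjusted p = 0.197), and its log2 fold change at 2 weeks was -0.51. Leaving out replicate 3 of MFN+GelMA 4W brought the positive count to 15, as did leaving out replicate 1 of GelMA 4W. Without the 3 libraries that stood apart it was 15, with 3 negative. The negative count was 2 when only GelMA 2W replicate 3 was left out. Over all called genes the higher share was 64.6% as deposited and 51% under the scaling without mitochondrial genes.

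**Figure D4:**
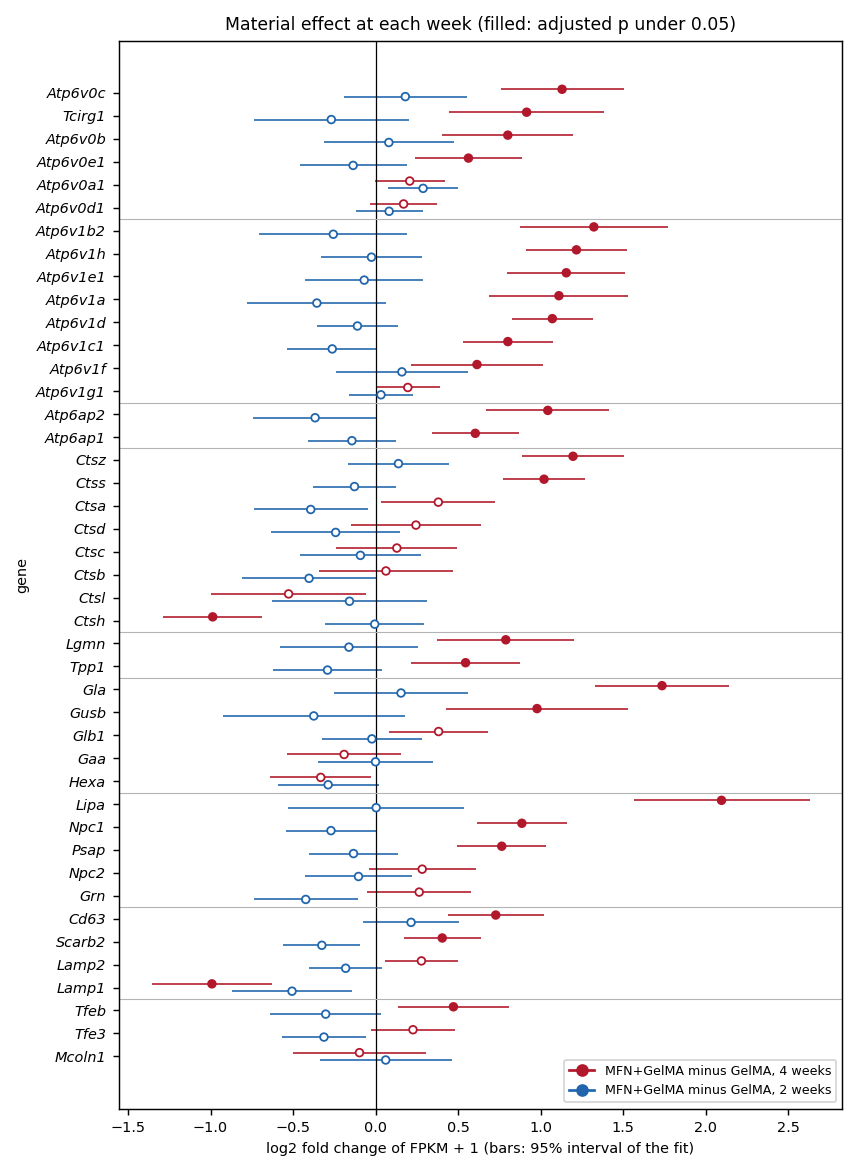
Log2 fold change (x axis) of MFN+GelMA over GelMA for the 43 genes (rows, by role) at 4 weeks (red) and 2 weeks (blue), with 95% intervals of the fit; filled points passed at an adjusted p under 0.05. At 4 weeks 27 points are filled and at 2 weeks 0.

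Over time 13 of 16 pump genes rose in MFN+GelMA, and 3 did not pass. At 4 weeks relative to 2 weeks 22 of the 43 genes rose there and 2 fell, against 11.2% and 8.11% of all genes tested. The groups did not overlap in 26 genes that were higher at 4 weeks and 4 that were lower, against 20.1% and 17.6% of all genes. The median log2 fold change of the pump was 0.73. Of the 8 cathepsins 1 rose and 1 fell (median -0.04), and 2 of 5 glycosidases rose (0.12). Lipa had the largest change (log2 fold change 2.31 ± 0.24 SE, adjusted p = 0.000224), and Atp6v1h led the pump (log2 fold change 1.34 ± 0.14 SE, adjusted p = 0.000215). Atp6v1d rose by a log2 fold change of 1.04, Gusb by 1.23 and Psap by 0.65 (adjusted p = 0.000225, 0.00665 and 0.00408). Lamp1 fell by 1.04 and Ctsh fell by 0.75 on the log2 scale (adjusted p = 0.00162 and 0.00341). Ctss passed at a log2 fold change of 0.36 (adjusted p = 0.0449), and in 4 of 12 fits that each left out 1 library. Those that lost it lacked MFN+GelMA 4W replicate 1 or 3, any MFN+GelMA 2W library, GelMA 4W replicate 1, or GelMA 2W replicate 1 or 2 (highest 0.150, without MFN+GelMA 4W replicate 3). Atp6v0c passed (log2 fold change 0.64 ± 0.17 SE, adjusted p = 0.0231) but not without MFN+GelMA 4W replicate 2 or 3 or MFN+GelMA 2W replicate 2 (highest 0.0818, without MFN+GelMA 4W replicate 3). Under the scaling without mitochondrial genes the higher share of all called genes was 45.3%, against 58% as deposited, and 19 of the set rose and 3 fell.

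In GelMA alone 0 genes rose and 4 fell at 4 weeks relative to 2 weeks, against 0.497% and 1.74% of all genes tested. The antigen-processing protease Ctss fell (log2 fold change -0.78 ± 0.11 SE, adjusted p = 0.0126), as did Ctsz (log2 fold change -0.84 ± 0.14 SE, adjusted p = 0.0182). The other 2 were Lgmn (log2 fold change -0.86 ± 0.19 SE, adjusted p = 0.0435) and Grn (log2 fold change -0.64 ± 0.14 SE, adjusted p = 0.0468). None of the 16 pump genes passed (median -0.20), and 0 of the 5 glycosidases did (-0.28). Without the 3 libraries that stood apart these medians were -0.06 and -0.05, and leaving out 1 library gave -0.28 to -0.11 and -0.40 to -0.16. Macrophage markers moved with the 4 genes: 17 of 17 were lower at 4 weeks (median log2 fold change -0.51), of which 3 fell, and their part in these changes was not tested. None of the 4 calls held in every fit that left out 1 library. Without GelMA 4W replicate 1 none passed, with adjusted p of 0.0762 for Ctss, 0.0875 for Ctsz, 0.183 for Lgmn and 0.204 for Grn. Of all genes tested 12 were called in that fit, against 274 with all libraries. Ctss passed in the other 11 fits that left out 1 library, and Ctsz in 10, failing also without GelMA 2W replicate 1. Lgmn passed in 3 and Grn in 1, so each depended on most libraries. In 13 genes the GelMA 4W libraries lay below the GelMA 2W libraries without overlap and in 0 above, against 14.2% and 10.3% of all genes. The 2 comparisons over time and the 2 between materials share groups and are not independent of each other.

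Further lysosomal genes were taken from lists by function. Their counts at 4 weeks stand against the 15.3% of all genes tested that rose and the 9.27% that fell. Of 10 tested pump isoforms and assembly factors 4 rose and 1 fell. Atp6v0d2, the d subunit isoform of osteoclasts and some macrophages, had 159.5, 122 and 135 FPKM in MFN+GelMA 4W and 32.3, 17.2 and 60.5 FPKM in GelMA 4W, then 21.4, 13.9 and 18.4 FPKM in MFN+GelMA 2W and 11.1, 18.4 and 9.54 FPKM in GelMA 2W. It rose by a log2 fold change of 2.06 (adjusted p = 0.00212), whereas Atp6v0d1, the common isoform, did not pass. The assembly factors Ccdc115 and Dmxl1 rose by a log2 fold change of 0.70 and 0.78 (adjusted p = 0.00138 and 0.00338). Of 4 other cathepsins 1 rose: Ctsk, the collagen-cutting protease of osteoclasts, had 916, 1153 and 1037 FPKM in MFN+GelMA 4W and 347, 182 and 501 FPKM in GelMA 4W, then 343, 239 and 285 FPKM in MFN+GelMA 2W and 199, 234 and 227 FPKM in GelMA 2W (log2 fold change 1.70 ± 0.29 SE, adjusted p = 0.00145). In GelMA 4W the 3 libraries differed widely from one another in both Atp6v0d2 and Ctsk, and replicate 3 was the highest.

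Of 44 other lysosomal hydrolases 15 rose and 4 fell, the second count being near that of all genes. Acp5, tartrate-resistant acid phosphatase, rose by a log2 fold change of 1.78 and Galc, galactosylceramidase, by 1.69 (adjusted p = 0.000413 and 0.000924), while the carboxypeptidase gene Cpq fell (log2 fold change -0.85 ± 0.11 SE, adjusted p = 0.000247). Of 37 membrane and sorting genes 18 rose and 0 fell, with log2 fold changes of 1.31 for Litaf and 1.12 for Tpcn2, a cation channel (adjusted p = 0.000180 and 0.000469). Of 20 genes of nutrient sensing and TFEB regulation 7 rose and 0 fell. Among them Tfec, a relative of TFEB found in macrophages, had 16.9, 16.6 and 13.0 FPKM in MFN+GelMA 4W and 5.17, 5.38 and 5.86 FPKM in GelMA 4W (log2 fold change 1.35 ± 0.22 SE, adjusted p = 0.00115), and at 2 weeks 13.4, 11.4 and 17.8 FPKM in MFN+GelMA and 18.2, 13.6 and 9.27 FPKM in GelMA. Mitf, another relative, averaged 27.8 ± 1.88 FPKM in MFN+GelMA 4W and 15.3 ± 3.53 FPKM in GelMA 4W (SD, n = 3 each), with log2 fold change 0.84 ± 0.19 SE, adjusted p = 0.00748.

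Natural inhibitors of the cathepsins rose in 3 of 5 tested genes, against 15.3% of all genes tested. Cst7, cystatin F of immune cells, had 75.9, 75.6 and 77.7 FPKM in MFN+GelMA 4W and 20.9, 24.6 and 30.4 FPKM in GelMA 4W (log2 fold change 1.57 ± 0.16 SE, adjusted p = 8.30e-05). Cstb, a cytosolic inhibitor, rose by a log2 fold change of 0.89 and Cst6 by 2.56 (adjusted p = 0.00103 and 0.00137). At 2 weeks 0 genes of these further lists passed, where 0.171% of all genes tested rose and 0.326% fell. Some genes, such as Ctsk, Acp5 and Atp6v0d2, stand in more than 1 list.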

How the data were processed

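Libraries were made from TRIzol-extracted total RNA after removal of ribosomal RNA, with a kit that keeps strand, per the labels' protocols. The submitters' processing notes name cutadapt 1.9.3, HISAT2, Cuffdiff and the rat build rn6. Neither source gives the other versions, the annotation or the strand setting, so reads of overlapping genes may have been mixed. The deposited table gave 22062 rows with FPKM for each library, per the file headers, which were the values tested. Its other deposited columns, headed as counts, hold a count-like signal that is not whole (fragments divided by 1 factor per library, as read from the values). Whole fragments could not be recovered for nearly all genes, so no count model was run, and that signal served only to give depth. Low genes, near 1 FPKM, are backed by few fragments each and are the least precise.

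Where a symbol stood on several rows (233 symbols, 498 rows) their FPKM were added, which left 21797 genes. A gene was tested if 3 or more of the 12 libraries reached 1 FPKM (12270 genes). Values were taken as log2(FPKM + 1), where the pseudocount of 1 understates the fold change of low genes, and fitted with limma (3.58.1, under R 4.3.3). The fit held 1 mean for each of 4 groups and an intensity trend, with 8 residual and 3.28 prior degrees of freedom. Tests were two-sided, with Benjamini-Hochberg adjustment over all genes and 5 contrasts. The code was checked on made-up data with known changes.

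The 43 genes, their classes and the further lists (216 symbols, 12 of them not used here) were chosen with earlier results of these data known. Described in full are, for each contrast and class, the 3 called genes with the smallest p, the most abundant gene of each class, and Tfeb, Tfe3 and Mcoln1. From each further list up to 3 genes with the smallest p at 4 weeks are named, except 1 that is not reported here, and also Atp6v0d2, Ctsk and Mitf. Alternatives tried were the filter, the pseudocount, 2 scalings, the samples in the fit, a replicate block, the trend, unsummed rows, and leaving out libraries.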

Additional observations from a re-analysis of the deposited data

Results flagged for a closer look

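The effect of the material, MFN+GelMA over GelMA, differed between 4 and 2 weeks for 26 of the 43 genes by limma's interaction test (lowest adjusted p 0.00309, for Atp6v1d). The difference was positive for 25 and negative for 1, against 9.1% and 4.98% of all genes tested. The values are log2 differences, 4 weeks minus 2 weeks. In the proton pump they were 1.18 for Tcirg1, 0.95 for Atp6v0c and 0.70 for Atp6v0e1 in V0. In V1 they were 1.58 for Atp6v1b2, 1.47 for Atp6v1a, 1.24 for Atp6v1h, 1.22 for Atp6v1e1, 1.18 for Atp6v1d and 1.06 for Atp6v1c1. The accessory genes gave 1.41 for Atp6ap2 and 0.75 for Atp6ap1.

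Among the cathepsins the difference was 1.15 for Ctss, 1.06 for Ctsz, 0.77 for Ctsa and -0.98 for Ctsh, the 1 negative value. The glycosidases gave 1.58 for Gla and 1.35 for Gusb. The others were 2.09 for Lipa, 1.16 for Npc1, 0.90 for Psap and 0.69 for Grn among lipid-handling genes, 0.95 for Lgmn and 0.84 for Tpp1 among peptidases, 0.73 for the membrane protein Scarb2, and 0.77 for Tfeb and 0.54 for Tfe3.

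In 16 of the 26 genes the call held in each of 12 fits that left out 1 library. The exceptions were Tcirg1, Atp6v0c, Atp6v0e1, Ctsa, Lgmn, Tpp1, Gusb, Grn, Tfeb and Tfe3. All 10 lost the call when replicate 3 of MFN+GelMA 4W or replicate 1 of GelMA 4W was left out, and some when another library was. Tfe3, the last to pass, held in 2 of the 12 fits. Atp6ap1, among the 16 that held, lost its call when the 3 libraries that stood apart were left out together.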

How the results depend on the processing

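Counts here are of the 43 genes, and the cause of each shift was not tested. The 25 that rose and 2 that fell at 4 weeks, and the 0 called at 2 weeks, stayed within 1.5 times of those counts under all alternatives run. Leaving out 1 library gave 19 to 26 that rose and 2 to 3 that fell at 4 weeks. For the material effect at 4 minus 2 weeks (25 positive, 1 negative), it gave 15 to 25 positive and 1 to 2 negative, and leaving out together the 3 libraries that stood apart gave 15 and 3. For 4 against 2 weeks in MFN+GelMA (22 and 2), leaving out 1 library gave 16 to 22 and 2 to 3, and a fit of only the samples compared gave 4 that fell. For 4 against 2 weeks in GelMA, 4 genes fell. That count was 2 with no filter on low values, 2 with median ratio scaling, 2 with an equal sum without mitochondrial genes, 2 with no intensity trend, 2 without those 3 libraries and 0 with only the samples compared, and leaving out 1 library gave 0 to 5. No called gene changed direction in any alternative run.

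Whether the replicate numbers pair the libraries is not stated. Same-numbered libraries of 2 groups had deviations that correlated between -0.058 and 0.367, which does not settle it. Between GelMA 4W and GelMA 2W the values were -0.058, 0.312 and 0.367 for same numbers and -0.342 to 0.133 for unlike numbers. With a replicate block 25 rose and 3 fell at 4 weeks, 0 were called at 2 weeks, 25 were positive and 1 negative for the difference between weeks, 21 rose and 3 fell over time in MFN+GelMA, and 4 fell in GelMA. The gene added at 4 weeks was Ctsl (adjusted p = 0.0408). A count test planned on recovered fragments was not run. With 3 libraries a group, a change that missed the threshold may still be present.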
